A study of Mus musculus with 15 samples.

Results

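The expression of 10 target genes of the tumour suppressor p53 was followed across Myc-CaP cells that carried a vector alone or 1 of several forms of the transcription factor Twist1. The genes are Mdm2, Ccng1, Trp53inp1, Btg2, Gadd45a, Plk2, Sesn1, Phlda3, Zmat3 and Eda2r. They were chosen by name, and each was represented by the probe set whose annotation gives its symbol alone, taking the one with the highest mean over the arrays where there were several. Each of the 10 had 1 such probe set, so all 10 were measured, out of 19297 genes on the arrays.

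Myc-CaP is a cell line from a prostate tumour of a mouse with a Myc transgene in the prostate. The study transfected it with the vector alone (VEC), with wild-type Twist1 (WT), with F191G, whose mutation lies in the Twist box, or with the forms named AQA and DQD, which the labels do not spell out. The labels tag the constructs as knock-in. Cells were selected after transfection and harvested when confluent, and total RNA was hybridised to single-colour Affymetrix mouse gene arrays, 3 per group and 15 in all. The design text asks what the Twist-box mutation does to the expression that Twist1 induces and names WT against VEC and F191G against VEC. All 5 groups share the Myc background, the transfection and the selection. The labels name neither the promoter of the constructs nor clones, and they do not say whether replicates A, B and C of a group were separate cultures, so p-values measure only how far these arrays spread, and that spread may be technical. Fewer cells expressing a gene and less RNA per cell cannot be told apart in such bulk RNA.

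The p53 protein binds DNA as a tetramer, and each of its sites is built of a pair of half-sites. Its targets halt the cell cycle, repair DNA, restrain growth signalling or start apoptosis, and several of them, Mdm2 first, feed back to hold p53 in check. Many of these genes also answer to other factors: Sesn1, Trp53inp1 and Btg2, for example, are known to rise in cells that leave the cell cycle or lack growth factors. Twist1 is a basic helix-loop-helix factor that binds the short motif called the E-box, and its Twist box is a short carboxy-terminal stretch needed for some of its functions.

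Promoter sequences were at hand for 8 of the 10 genes, from RefSeq on build GRCm38.p6. Of these, 3 are printed to show what lies just before the start of members with different patterns in the arrays. By mean level Mdm2 was highest in WT and lowest in VEC, Btg2 highest in WT and lowest in DQD, and Gadd45a highest in AQA and lowest in VEC. Each is the minus-strand stretch of 250 bases directly before the annotated start, written 5′ to 3′, and capitals mark an E-box (CANNTG, the same on both strands) or a p53 half-site (the standard consensus, without mismatch, on either strand). Mdm2 lies at chr10:117710759-117711008, Btg2 at chr1:134079156-134079405 and Gadd45a at chr6:67037408-67037657.
Mdm2: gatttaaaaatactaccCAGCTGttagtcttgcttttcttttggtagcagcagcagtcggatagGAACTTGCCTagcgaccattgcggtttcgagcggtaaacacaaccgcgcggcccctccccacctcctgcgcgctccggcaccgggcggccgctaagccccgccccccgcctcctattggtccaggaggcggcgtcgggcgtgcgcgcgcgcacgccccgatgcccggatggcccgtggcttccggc
Btg2: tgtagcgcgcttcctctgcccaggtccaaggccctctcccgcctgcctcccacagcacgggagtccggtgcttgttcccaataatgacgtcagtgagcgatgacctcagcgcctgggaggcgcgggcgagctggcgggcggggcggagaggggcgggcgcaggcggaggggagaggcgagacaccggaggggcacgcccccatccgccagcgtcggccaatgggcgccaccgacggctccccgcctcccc
Gadd45a: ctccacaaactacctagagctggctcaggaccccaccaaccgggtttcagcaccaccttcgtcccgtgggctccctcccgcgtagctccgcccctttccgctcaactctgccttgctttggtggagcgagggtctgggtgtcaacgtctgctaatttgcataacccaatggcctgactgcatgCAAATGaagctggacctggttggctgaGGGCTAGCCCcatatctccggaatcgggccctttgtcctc

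In the Mdm2 stretch the E-box CAGCTG lies 233 to 228 bases before the start and the half-site GAACTTGCCT 186 to 177 bases before it. In Gadd45a the E-box CAAATG lies 67 to 62 bases and the half-site GGGCTAGCCC 40 to 31 bases before the start. The Btg2 stretch holds neither motif, and no E-box overlapped a half-site. Of the 8 genes, 3 had an E-box in this stretch (Mdm2, Gadd45a and Plk2), against 66.2% of 32851 promoter stretches of the same length. A half-site was found in 4 of the 8 (Mdm2, Ccng1, the second promoter of Sesn1 and Gadd45a), against 7.13% of all stretches. The shares of all are counted per stretch, and the 8 genes have 9 stretches, of which 3 held an E-box and 4 a half-site. These are matches of letters, and no binding was measured.

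Array medians lay between 6.31 and 6.42 on the deposited log2 scale. No 2 arrays were identical, and any 2 correlated at 0.969 to 0.998 across genes. WT replicate A stood apart: the other 14 arrays correlated at 0.990 or more, and results that rest on this array are also given without it. The Twist1 probe set averaged 6.43 in VEC and 6.68 to 6.79 in the 4 Twist1 groups, and it passed the test in none of the 7 comparisons made here (WT against VEC 0.36, limma adjusted p = 0.129), so it does not check the labels. Prostate epithelial markers were read from 6 genes, of which Krt8 (69.5th percentile of all genes), Krt18 (39.0th), Cdh1 (36.4th) and Epcam (24.8th) gave signals that only for Krt8 lay above the middle of the arrays. Array means of these 6 were 5.92 to 6.39 in VEC and 6.03 to 6.05 in WT. Their differences in WT against VEC ran from -0.63 to 0.06 (2 higher, 4 lower), none past the test. All 6 were lower in AQA, DQD and F191G against VEC, again none past the test. The medians there were -0.24, -0.25 and -0.13 (all genes -0.04, -0.05 and -0.03). Of 6 haematopoietic markers 5 were measured: Cd68 (53.5th percentile), Cd3e (42.4th), Csf1r (24.3rd), Ptprc (17.6th) and Itgam (16.7th). Array means of that list were 5.29 to 5.42 in VEC and 5.38 to 5.55 in WT. In WT against VEC the macrophage marker Cd68 rose by 0.61 and the other 4 were lower by at most 0.08 without passing (median of the list -0.04), and the part of these markers in the results was not tested. The 7 endothelial and fibroblast markers averaged 6.03 to 6.07 in VEC and 6.08 to 6.16 in WT. Among them Pdgfra (62.8th percentile), Col1a1 (56.9th) and Col1a2 (54.0th) lay above the middle of the arrays, like Krt8. Cdh5 (34.9th), Pdgfrb (31.7th), Pecam1 (29.1st) and Kdr (24.2nd) lay below it.

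Wild-type Twist1 went with more Mdm2, Trp53inp1, Btg2, Sesn1 and Plk2 RNA and slightly less Ccng1 RNA than the empty vector. Trp53inp1 and Btg2 moved most, 4.52-fold and 4.65-fold, which ranked 19th and 14th in size among the genes that were higher in WT. Each difference below is a log2 difference between groups from 1 limma model over all genes, with group and array batch as terms, its standard error (SE) and its p-value adjusted over all genes by the Benjamini-Hochberg method. A gene rose or fell where that p was under 0.05. Levels are on the deposited log2 scale, with n = 3 arrays in each group. In WT against VEC 5 of the 10 genes rose and 1 fell, where 7.06% of all genes rose and 5.72% fell. The arrays of the 2 groups did not overlap for 6 of the 10, against 31.6% of all genes. The median difference of the 10 was 0.21, and that of all genes -0.01. The 10 were chosen with earlier results of these data known, so the all-gene values beside them are description and no test.

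**Figure D1:**
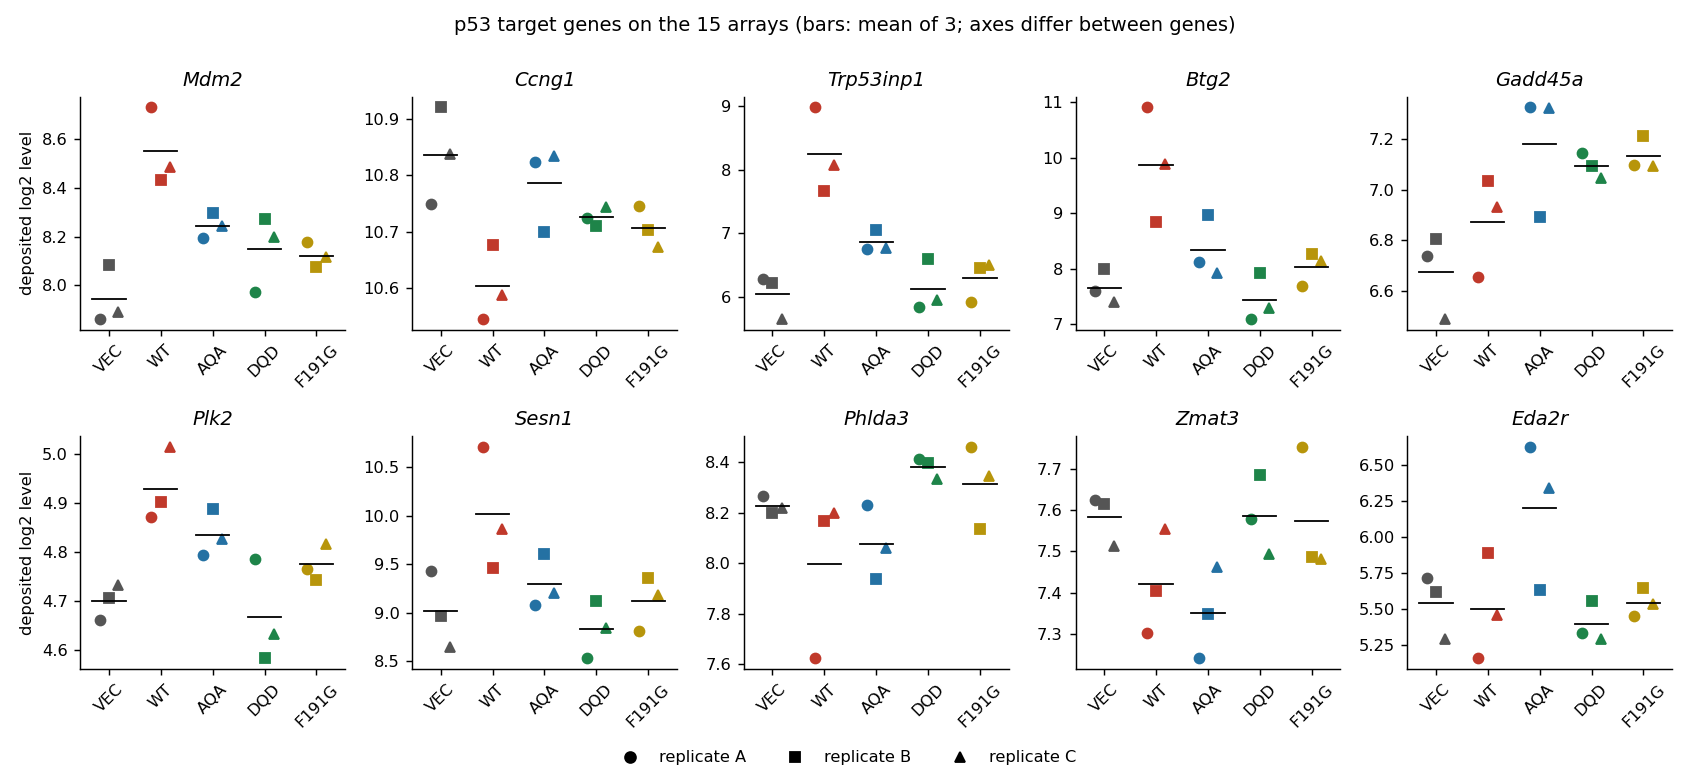
Deposited log2 level (vertical axis, scaled per gene) of each p53 target gene on each of the 15 arrays, by group, with marker shapes for replicates A, B and C and bars for the mean of 3. WT lies above the 3 VEC arrays for Mdm2, Trp53inp1, Btg2, Sesn1 and Plk2 and below them for Ccng1, and AQA holds the highest mean for Gadd45a and Eda2r.

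Mdm2 encodes the ubiquitin ligase that marks p53 for degradation and is itself a p53 target. Its level was 7.86, 8.08 and 7.89 in VEC replicates A to C and 8.73, 8.43 and 8.49 in WT. The AQA arrays read 8.20, 8.30 and 8.24, the DQD arrays 7.97, 8.27 and 8.20, and the F191G arrays 8.18, 8.07 and 8.12. The 3 WT arrays were the 3 highest of the 15, and all 9 arrays of the mutant forms lay below the lowest of them. Mdm2 rose by 0.61 in WT against VEC (SE 0.0959, limma adjusted p = 0.00546), and the rise passed the test without any single one of the 6 arrays, at 0.51 to 0.68. It was 0.61 in batch A and 0.60 in batch B. Against VEC the mutant forms differed by 0.30 in AQA (adjusted p = 0.155), 0.20 in DQD (adjusted p = 0.225) and 0.18 in F191G (adjusted p = 0.517), none past the test, although 10 of the 12 Twist1 arrays lay above the highest VEC array. Against WT, Mdm2 fell by 0.40 in DQD (SE 0.0982, limma adjusted p = 0.0176) and was at -0.43 in F191G (SE 0.0982, limma adjusted p = 0.0329), and the AQA difference of -0.31 did not pass (limma adjusted p = 0.0812).

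Ccng1 encodes cyclin G1, a long-known p53 target that recruits a phosphatase to Mdm2. It read 10.75, 10.92 and 10.84 in VEC and 10.55, 10.68 and 10.59 in WT. AQA read 10.82, 10.70 and 10.83, DQD 10.72, 10.71 and 10.74 and F191G 10.75, 10.70 and 10.67, with means between those of VEC and WT and arrays that reached into the range of VEC (AQA) or WT (F191G). All 3 WT arrays were below the lowest VEC array, and of the 12 Twist1 arrays 10 were. Ccng1 fell by 0.23 in WT against VEC (SE 0.0636, limma adjusted p = 0.0328), a call that was lost without any 1 of 4 arrays (WT replicates A and C, VEC replicates B and C), with values of -0.28 to -0.19 over all 6. Its differences in AQA (-0.05), DQD (-0.11) and F191G (-0.13) against VEC did not pass the test, nor did those against WT (0.10 to 0.18). Among the 10 genes Ccng1 was the only one to fall in a Twist1 group against VEC.

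Trp53inp1 encodes a p53-induced nuclear protein that takes part in p53 phosphorylation, cell death and autophagy. Its levels were 6.29, 6.23 and 5.66 in VEC and 8.97, 7.67 and 8.07 in WT. In AQA they were 6.75, 7.05 and 6.78, in DQD 5.86, 6.59 and 5.96, and in F191G 5.93, 6.46 and 6.51. The WT arrays stood above all other 12 arrays, and the AQA arrays lay between them and the VEC, DQD and F191G arrays, with no overlap on either side. Trp53inp1 rose by 2.18 in WT against VEC (SE 0.301, limma adjusted p = 0.00390), with 2.06 in batch A and 2.41 in batch B, and with 1.79 to 2.48 when single arrays were left out, always past the test. AQA differed from VEC by 0.80 (SE 0.301, limma adjusted p = 0.217), DQD by 0.08 (adjusted p = 0.901) and F191G by 0.24 (adjusted p = 0.818). Against WT, Trp53inp1 fell by 2.10 in DQD (SE 0.309, limma adjusted p = 0.00759) and was at -1.94 in F191G (SE 0.309, limma adjusted p = 0.0180). In AQA against WT it was -1.37 (SE 0.301, limma adjusted p = 0.0531), just outside the threshold.

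Btg2 encodes an antiproliferative protein that slows the passage from G1 to S phase and binds the CCR4-NOT deadenylase. VEC read 7.61, 7.99 and 7.39, and WT read 10.91, 8.85 and 9.88, the widest spread of any group (mean 9.88 ± 1.03 SD). AQA read 8.12, 8.97 and 7.92, DQD 7.09, 7.92 and 7.29, and F191G 7.69, 8.26 and 8.13. Every WT array was above every VEC array, while AQA replicate B exceeded WT replicate B and the other 8 mutant arrays lay below the lowest WT array. Btg2 rose by 2.22 in WT against VEC (SE 0.427, limma adjusted p = 0.00997), with 2.08 in batch A and 2.49 in batch B. Leaving out WT replicate A gave 1.67, and leaving out VEC replicate C gave 2.05, which did not pass the test (limma adjusted p = 0.0717). None of the differences of AQA (0.67), DQD (-0.23) and F191G (0.36) from VEC passed, with adjusted p of 0.467, 0.781 and 0.803. Against WT, Btg2 fell by 2.45 in DQD (SE 0.437, limma adjusted p = 0.00940) and was at -1.85 in F191G (SE 0.437, limma adjusted p = 0.0356), while AQA stood at -1.54 (limma adjusted p = 0.0631), and at -1.0 without WT replicate A.

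Gadd45a encodes a small stress-induced protein that binds PCNA and the kinase Cdc2 and activates stress kinases. It was lowest in VEC, with 6.74, 6.80 and 6.49 in VEC, 6.65, 7.03 and 6.93 in WT, 7.33, 6.89 and 7.32 in AQA, 7.15, 7.09 and 7.05 in DQD and 7.10, 7.21 and 7.09 in F191G. All arrays of the 3 mutant forms lay above the highest VEC array, and 8 of these 9 lay above the highest WT array. The differences from VEC were 0.50 in AQA (SE 0.126, limma adjusted p = 0.0833), 0.42 in DQD (SE 0.129, limma adjusted p = 0.0919), 0.46 in F191G (SE 0.129, limma adjusted p = 0.215) and 0.20 in WT (SE 0.126, limma adjusted p = 0.362), none past the threshold. The AQA difference passed without AQA replicate B and without WT replicate A. These comparisons share the 3 VEC arrays. Against WT, Gadd45a differed by 0.31 in AQA, 0.22 in DQD and 0.26 in F191G, and none of these passed (limma adjusted p = 0.153 to 0.214). Without WT replicate A they were 0.19, 0.12 and 0.16, and WT stood 0.31 above VEC.

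Plk2 encodes a polo-like kinase that acts in G1 and at stress checkpoints. It read 4.66, 4.71 and 4.73 in VEC, 4.87, 4.90 and 5.02 in WT, 4.79, 4.89 and 4.83 in AQA, 4.79, 4.58 and 4.63 in DQD and 4.76, 4.74 and 4.82 in F191G. The WT, AQA and F191G arrays all lay above the VEC arrays, and DQD spanned them. Plk2 rose by 0.23 in WT against VEC (SE 0.0659, limma adjusted p = 0.0389) and fell by 0.26 in DQD against WT (SE 0.0675, limma adjusted p = 0.0203). The differences of AQA (0.14), F191G (0.08) and DQD (-0.03) from VEC did not pass. The rise in WT passed without WT replicate B alone and was lost without any of the other 5 arrays, at 0.18 to 0.26. The probe set lay among the dimmest 33.3% of genes.

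Sesn1 encodes sestrin 1, which restrains the growth kinase complex mTORC1 and limits oxidative stress. Its levels were 9.43, 8.97 and 8.65 in VEC, 10.72, 9.47 and 9.87 in WT, 9.08, 9.60 and 9.21 in AQA, 8.53, 9.13 and 8.84 in DQD and 8.82, 9.36 and 9.19 in F191G. WT replicate B and VEC replicate A stood next to each other, and AQA replicate B lay above WT replicate B. Sesn1 rose by 1.0 in WT against VEC (SE 0.292, limma adjusted p = 0.0414), was 0.63 without WT replicate A (limma adjusted p = 0.153) and lost its call also without WT replicate C or without either of VEC replicates B and C. Against VEC the differences were 0.28 in AQA, -0.18 in DQD and 0.11 in F191G, and none passed. Against WT, Sesn1 fell by 1.18 in DQD (SE 0.299, limma adjusted p = 0.0194), and the differences of -0.89 in F191G (limma adjusted p = 0.0760) and -0.72 in AQA (limma adjusted p = 0.147) did not pass. Without WT replicate A these 2 were -0.56 and -0.35.

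Phlda3, whose product competes with the kinase Akt for membrane lipid, had its highest mean in DQD, at 8.33 to 8.41. F191G read 8.46, 8.14 and 8.35, with replicate A above every DQD array, and AQA read 8.23, 7.94 and 8.06. VEC lay at 8.20 to 8.27 and WT at 7.62, 8.17 and 8.20, with WT replicate A as the 1 low array. Its difference in WT from VEC was -0.23 (limma adjusted p = 0.310), and -0.03 without WT replicate A. DQD stood above WT by 0.38 (SE 0.138, limma adjusted p = 0.0581) and F191G by 0.32 (limma adjusted p = 0.156), neither past the test, and without WT replicate A these were 0.21 and 0.14. Zmat3, a zinc finger protein that binds RNA and shapes splicing, kept within 7.24 to 7.75 on all arrays. It was lowest in AQA (7.24, 7.35 and 7.46), below all VEC arrays (7.62, 7.62 and 7.51), a difference of -0.23 that did not pass (limma adjusted p = 0.253). In none of the 7 comparisons did Phlda3 or Zmat3 pass the test.

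Eda2r encodes a receptor for the ectodysplasin isoform A2, and its AQA arrays were uneven. It read 6.63, 5.63 and 6.34 in AQA, against 5.72, 5.62 and 5.29 in VEC, 5.15, 5.89 and 5.46 in WT, 5.33, 5.55 and 5.29 in DQD and 5.45, 5.64 and 5.53 in F191G. AQA replicates A and C were the 2 highest of the 15 arrays, and AQA replicate B lay within the other groups. The AQA differences of 0.66 from VEC (SE 0.227, limma adjusted p = 0.183) and 0.70 from WT (SE 0.227, limma adjusted p = 0.0882) did not pass with all arrays, and both passed without AQA replicate B. In WT against VEC, Eda2r was at -0.04 (95% interval -0.53 to 0.45), and at 0.14 without WT replicate A.

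**Figure D2:**
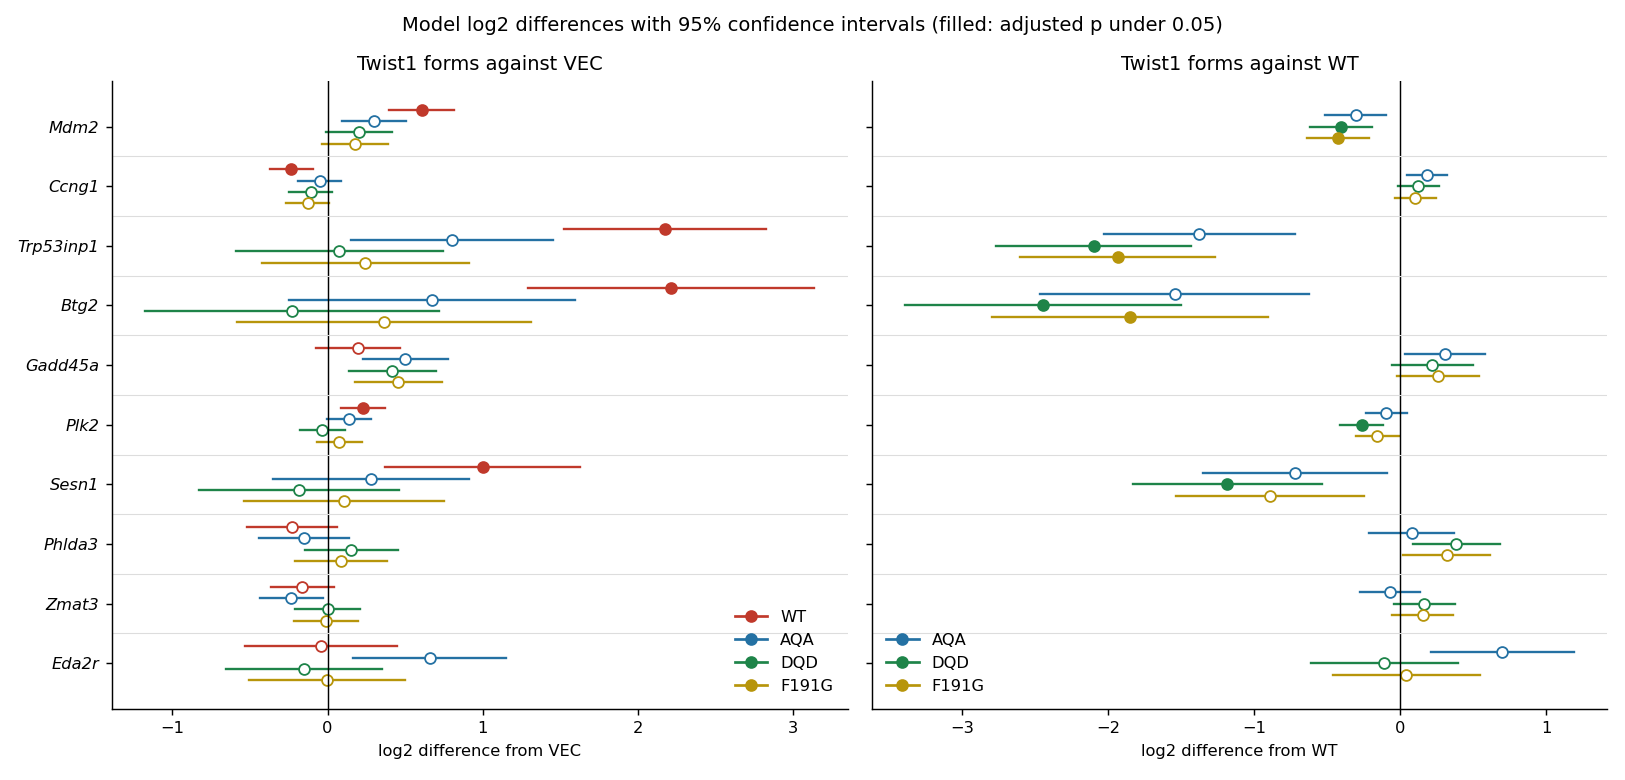
Log2 difference (horizontal axis) of each gene for the Twist1 forms against VEC (left) and for the mutant forms against WT (right), from the limma model, with 95% confidence intervals and filled points where the adjusted p was under 0.05. On the left WT alone has filled points, from -0.23 for Ccng1 to 2.22 for Btg2, and on the right DQD has 5 and F191G 3, all below 0.

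None of the 10 genes passed the test in AQA, DQD or F191G against VEC. In AQA against VEC 0.513% of all genes rose and 0.368% fell. At an unadjusted p under 0.05 there were 5 of the 10 and 15.7% of all genes, and the arrays did not overlap for 5 of the 10, against 25.8% of all genes. The median difference of the 10 was 0.29 and that of all genes -0.04. In DQD against VEC 0.415% of all genes rose and 0.399% fell, and Gadd45a alone of the 10 had an unadjusted p under 0.05, as had 24.0% of all genes. The DQD and VEC arrays did not overlap for 3 of the 10 (34.8% of all genes), and the median was -0.02. In F191G against VEC 0.0466% of all genes rose and 0.0518% fell, and Gadd45a was again the 1 of the 10 with an unadjusted p under 0.05, as had 11.7% of all genes. There 3 of the 10 did not overlap (21.1% of all genes). Its median was 0.10. With each array centred on its median, 87 of all genes rose and 30 fell in AQA against VEC (99 and 71 as deposited), 357 and 33 in DQD against VEC (80 and 77) and 5 and 3 in F191G against VEC (9 and 10), and repeated quantile normalization left 1 and 0 in DQD against VEC, while none of the 10 genes passed under either. So few genes passed in these 3 comparisons that a count of 0 says little about the 10 genes, and their intervals are wide: for Btg2 in F191G against VEC the 95% interval ran from -0.58 to 1.31.

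The direct comparisons with wild-type Twist1 share the 3 WT arrays with WT against VEC and with each other, so their directions are not independent of it. In DQD against WT 5 of the 10 genes fell (Mdm2, Trp53inp1, Btg2, Sesn1 and Plk2) and 0 rose, where 12.8% of all genes fell and 11.8% rose. Arrays did not overlap for 8 of the 10, against 48.2% of all genes, and the median was -0.19 (all genes -0.07). Markers of other cell types were also lower there: all 5 haematopoietic ones (median -0.26), of which Cd68, Cd3e and Csf1r fell, and all 7 endothelial and fibroblast ones (median -0.18), of which Kdr, Col1a1 and Pdgfrb fell. All 6 prostate epithelial markers were lower too (median -0.14), of which Cdh1 fell. Haematopoietic array means all rounded to 5.20 in DQD, and the part of these markers in the fall of the 5 genes was not tested. None of the 5 passed without DQD replicate A, the only DQD array of batch A, when 0 of all genes passed either, with 5504 at an unadjusted p under 0.05. The 5 differences were then -0.27 for Mdm2, -1.89 for Trp53inp1, -2.19 for Btg2, -0.96 for Sesn1 and -0.35 for Plk2. Plk2 also lost its call without DQD replicate B or WT replicate C. Centring each array on its median shifted all genes by 0.11 in this comparison and turned the split of all called genes from 2272 higher and 2463 lower into 3885 and 926. Among the 10 genes it left 4 that fell and added rises of Ccng1 and Phlda3.

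In F191G against WT, the comparison that sets the Twist-box mutation against the wild type, Mdm2, Trp53inp1 and Btg2 fell and 0 rose, where 3.95% of all genes fell and 3.18% rose. The arrays did not overlap for 6 of the 10 (34.4% of all genes), and the median was -0.06. All 5 haematopoietic (median -0.13), 7 endothelial and fibroblast (-0.12) and 6 prostate epithelial markers (-0.08) were lower here too, none past the test. The median of all genes was -0.03, and the part of these markers was not tested. Without F191G replicate A, the only F191G array of batch A, 0 of the 10 and 0 of all genes passed, with 2791 genes at an unadjusted p under 0.05. With median centring the split of all called genes turned from 613 higher and 762 lower into 1141 and 460. Without F191G replicate A, Trp53inp1 was at -1.66, Btg2 at -1.60 and Mdm2 at -0.47. Without WT replicate A, F191G replicate B or F191G replicate C, Trp53inp1 alone passed, when 150, 226 and 106 of all genes passed, against 1375 with all arrays. Btg2 missed the threshold also without WT replicate C. In AQA against WT 0 of the 10 passed, where 0.306% of all genes rose and 0.420% fell. At an unadjusted p under 0.05 there were 7 of the 10 and 25.0% of all genes, and 3 of the 10 did not overlap (30.0% of all genes). That count of 0 became 5 without WT replicate B (Mdm2, Trp53inp1, Btg2 and Sesn1 lower and Eda2r higher) and 4 without AQA replicate B. The count over all genes grew as well, from 140 to 2411 without WT replicate B and to 1270 without AQA replicate B. With median centring 0 of all genes passed. In AQA against WT, too, 4 of the 5 haematopoietic, 6 of the 7 endothelial and fibroblast and all 6 prostate epithelial markers were lower. None of these markers passed the test.

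In order of mean level, WT came first and AQA second for Mdm2, Trp53inp1, Btg2, Sesn1 and Plk2. VEC was lowest for Mdm2, Trp53inp1 and Gadd45a, and DQD was lowest for Btg2, Sesn1, Plk2 and Eda2r. AQA was highest for Gadd45a and Eda2r, DQD for Phlda3 and Zmat3, and VEC for Ccng1. Of the 40 pairs of groups that are neighbours in these orders 35 overlapped and 0 passed the test, so the order of most groups is not settled. The 5 pairs without overlap were WT and AQA for Mdm2, WT and AQA and then AQA and F191G for Trp53inp1, DQD and WT for Gadd45a, and F191G and VEC for Plk2.

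**Figure D3:**
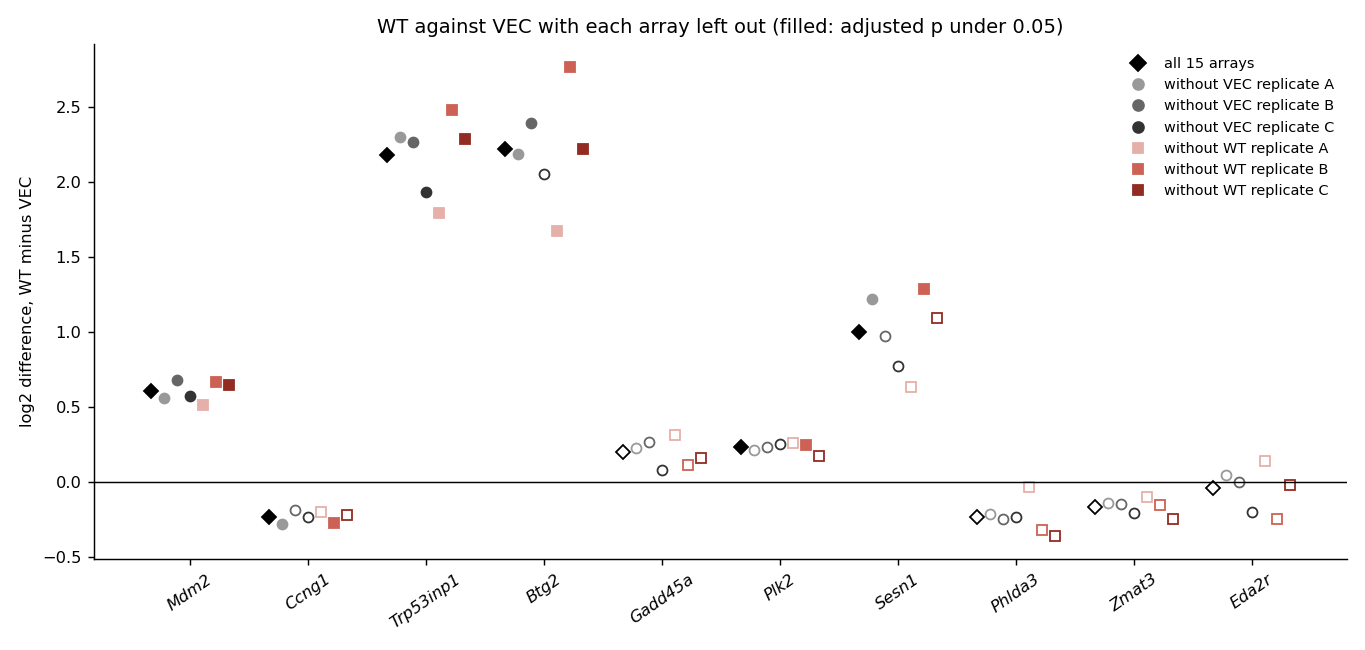
Log2 difference of each gene in WT minus VEC (vertical axis) with all 15 arrays (diamonds) and with 1 VEC array (circles) or 1 WT array (squares) left out, filled where the adjusted p was under 0.05. Mdm2 and Trp53inp1 stay filled throughout, Btg2 is open without VEC replicate C, and Sesn1, Ccng1 and Plk2 lose their call without several of the arrays.

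The count of 6 in WT against VEC depended on single arrays. It was 2 without VEC replicate C (Mdm2 and Trp53inp1), when 128 of all genes passed against 2466 with all arrays, and 3 without WT replicate A, VEC replicate B or WT replicate C, each time Mdm2, Trp53inp1 and Btg2. In those fits 844, 1693 and 2756 of all genes passed, in that order. The 10 genes also differed in how they varied within a group. Trp53inp1 and Sesn1 were highest in the same replicate in 4 of the 5 groups and lowest in the same replicate in 5 of 5, Btg2 and Sesn1 in 4 and 4, and Btg2 and Trp53inp1 in 3 and 4. The correlations of their deviations from the group means over the 15 arrays were 0.94, 0.86 and 0.90. Gadd45a and Eda2r shared the highest replicate in 3 and the lowest in 4 of the 5 groups, with a correlation of 0.91. WT replicate A was the highest WT array for Mdm2, Trp53inp1, Btg2 and Sesn1 and the lowest for Gadd45a, Eda2r, Phlda3, Zmat3, Ccng1 and Plk2. These correlations describe arrays that share a hybridisation and an RNA sample per point, and they carry no test.

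**Figure D4:**
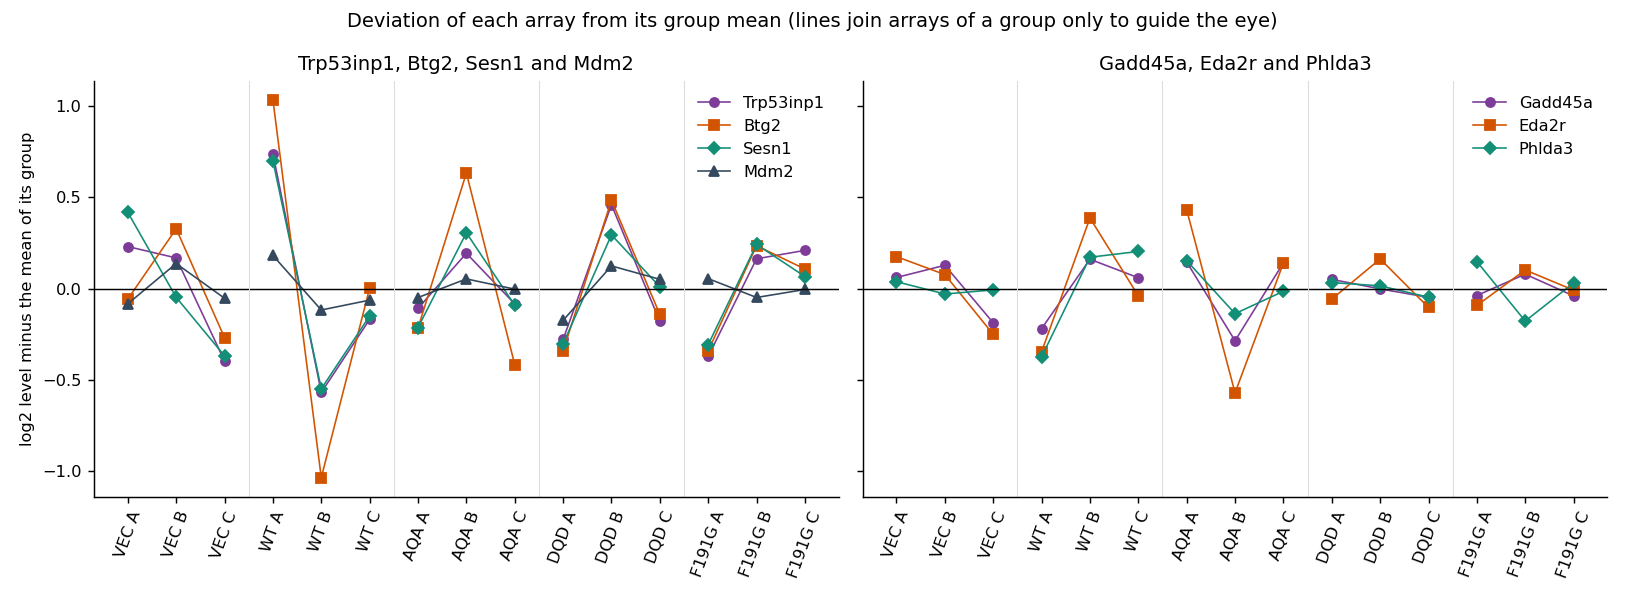
Deviation of each array from the mean of its group (vertical axis, log2) for Trp53inp1, Btg2, Sesn1 and Mdm2 (left) and Gadd45a, Eda2r and Phlda3 (right), arrays ordered by group and replicate. Trp53inp1, Btg2 and Sesn1 move together within the groups, with WT replicates A and B farthest apart, and Gadd45a and Eda2r dip together in WT replicate A and AQA replicate B.

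Btg2, Trp53inp1 and Sesn1 had the largest spread of group means, and for each the 3 other genes with the highest Pearson correlation over the 15 arrays were sought. For Btg2 these were Mme (0.995), which encodes the membrane peptidase neprilysin, Adhfe1 (0.991), an alcohol dehydrogenase gene, and Catsperd (0.987), a gene of the sperm calcium channel. For Trp53inp1 they were the phospholipase gene Pla2g6 (0.990), Ccpg1 (0.988), an autophagy receptor gene of the endoplasmic reticulum, and the phosphodiesterase gene Gdpd3 (0.987). For Sesn1 they were the endocytic adaptor gene Epn2 (0.992), the DNA repair gene Xpc (0.982), which is itself a known p53 target, and Nisch (0.982). Without WT replicate A the 9 correlations lay between 0.961 and 0.991. In WT against VEC the difference was 1.89 for Mme, 0.89 for Pla2g6 and 0.53 for Xpc, given with no test, since these genes were picked for their likeness over the same arrays.

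Other known p53 targets were read from a further list. Of its 30 genes 26 were measured, and Cdkn1a, Bax, Rrm2b and Gdf15 were not analysed here. In WT against VEC 1 of the 26 rose and 1 fell (7.06% and 5.72% of all genes), with a median of 0.01. Ddit4, a stress-induced inhibitor of mTORC1, rose by 1.08 (SE 0.306, limma adjusted p = 0.0380), and Pidd1, a scaffold of caspase activation, fell by 0.71 (SE 0.167, limma adjusted p = 0.0188). Without VEC replicate C 0 of the 26 passed, with 5 at an unadjusted p under 0.05. Pidd1 passed alone without WT replicate A or VEC replicate B, Ddit4 passed alone without VEC replicate A, and 7 passed without WT replicate B. Over all genes 128 passed without VEC replicate C and 3261 without WT replicate B, against 2466 with all arrays. Against VEC, 0 of the 26 passed in AQA (6 at an unadjusted p under 0.05, with 15.7% of all genes) and in F191G (5, with 11.7% of all genes). In DQD against VEC Ak1 rose by 0.34 (limma adjusted p = 0.0493), a call lost without any one of the VEC or DQD arrays. There 0.415% of all genes rose and 0.399% fell.

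In DQD against WT 5 of the 26 rose and 4 fell, against 11.8% and 12.8% of all genes, with Ddit4 at -1.89 (limma adjusted p = 0.00774), Bbc3, the gene of the death effector Puma, at -0.38 (limma adjusted p = 0.0213), Apaf1, the core of the apoptosome, at 0.55 (limma adjusted p = 0.0107) and the adenylate kinase gene Ak1 at 0.29 (limma adjusted p = 0.0175). That count was 0 without DQD replicate A, with 8 at an unadjusted p under 0.05, and 4 without WT replicate A, and with median centring 10 rose and 1 fell. Over all genes 0 passed without DQD replicate A and 2118 without WT replicate A, against 4735 with all arrays. With median centring 3885 of all genes rose and 926 fell. In F191G against WT, Apaf1 rose by 0.38 (limma adjusted p = 0.0487) and Ddit4 fell by 1.80 (limma adjusted p = 0.0197), where 3.18% of all genes rose and 3.95% fell. Ddit4 alone passed without WT replicate A, F191G replicate B or F191G replicate C, leaving out F191G replicate A left 0 of the 26 (4 had an unadjusted p under 0.05), and 8 passed without WT replicate B. Over all genes 0 passed without F191G replicate A and 2952 without WT replicate B, against 1375 with all arrays. In AQA against WT, Apaf1 rose by 0.52 (limma adjusted p = 0.0455) and was the only one of the 26 to pass, where 0.306% of all genes rose and 0.420% fell. Apaf1 lost its call without WT replicate A, WT replicate C, AQA replicate A or AQA replicate C and with median centring, while 6 of the 26 passed without WT replicate B and 3 without AQA replicate B. In the last 2 fits 2411 and 1270 of all genes passed, against 140 with all arrays.

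Among 20 regulators of p53, 19 were measured, and Trp53 itself was not analysed here. Mdm4, the partner of Mdm2 that blocks p53, read 7.75, 7.81 and 7.82 in VEC and 8.12, 7.95 and 7.91 in WT, a difference of 0.20 (limma adjusted p = 0.125) that did not pass, as in the 6 other comparisons. In WT against VEC 4 of the 19 fell and 1 rose (5.72% and 7.06% of all genes), with a median of -0.01, that of all genes too. Ppm1d, the phosphatase that turns off p53 signalling, fell by 0.30 (limma adjusted p = 0.0219), and the damage kinase genes Atm and Atr fell by 0.62 and 0.42 (limma adjusted p = 0.0242 and 0.0332). Ep300, a p53 acetyltransferase gene, rose by 0.29 (limma adjusted p = 0.0102). Only Ep300 passed without VEC replicate A or without WT replicate A, and none of the 19 passed without VEC replicate C, with 7 at an unadjusted p under 0.05. The all-gene counts were then 1314, 844 and 128, against 2466 with all arrays.

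In DQD against WT 6 of the 19 rose and 0 fell (11.8% and 12.8% of all genes), with a median of 0.13 (all genes -0.07). Atm rose by 0.79 (limma adjusted p = 0.0114), Atr by 0.57 (limma adjusted p = 0.0123), Usp7, the gene of a deubiquitinase of Mdm2 and p53, by 0.37 (limma adjusted p = 0.0146) and Cop1, a ubiquitin ligase gene, by 0.25 (limma adjusted p = 0.0177). The count was 11 with median centring and 0 without DQD replicate A, with 7 at an unadjusted p under 0.05. Over all genes 3885 rose and 926 fell with median centring, and 0 passed without DQD replicate A. In F191G against WT, Atm rose by 0.71 (limma adjusted p = 0.0319) and Atr by 0.49 (limma adjusted p = 0.0372), where 3.18% of all genes rose and 3.95% fell. Neither passed without WT replicate A or without any one of the 3 F191G arrays, Atm and the checkpoint kinase gene Chek1 passed without WT replicate C, and 4 of the 19 passed without WT replicate B. The all-gene counts were 150 without WT replicate A, 1759 without WT replicate C and 2952 without WT replicate B, against 1375 with all arrays. None of the 19 passed in AQA, DQD or F191G against VEC or in AQA against WT, where 3, 7, 4 and 7 had an unadjusted p under 0.05. The shares of all genes under that limit were 15.7%, 24%, 11.7% and 25%. With median centring 3 rose in DQD against VEC, when 357 of all genes rose (80 as deposited). In AQA against WT 5 rose without WT replicate B and 4 without AQA replicate B, when 2411 and 1270 of all genes passed, against 140 with all arrays.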

How the data were processed

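Total RNA of Myc-CaP cells was hybridised to 15 Affymetrix arrays, 3 for each of 5 groups taken from the labels. The authors deposited log2 values of 23811 probe sets, made with RMA (background correction, quantile normalization, summarization) and examined with limma per the submitters' processing notes, which give no versions. The design text also names a normalization by Twist1 expression in a form that no source used here gives, and whether these values hold it is unknown. RMA's quantile step removes differences in total RNA between arrays. The number of arrays limits the precision.

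A gene is the probe set with 1 symbol in the platform annotation (20852 of them) and the highest mean, which left 19297 genes. Models with group and batch (8 and 7 arrays) were fitted across the 15 arrays (limma 3.58.1, R 4.3.3, 9 residual and 3.93 prior degrees of freedom), and p-values were adjusted over all genes by Benjamini-Hochberg at 0.05, for 7 comparisons. The same fit was also run on simulated data. Those held independent normal values without a batch effect or an outlying array, so they do not check the fit on arrays like these. Named were all 10 members, Trp53, Mdm4, Cdkn1a and Twist1, up to 4 called genes of each further list per comparison with the smallest p, and the 3 genes most correlated with each of 3 members. The gene Chek1, marker genes and genes of left-out fits are named outside that rule, after their values were seen. Members and lists were chosen with earlier results of these data known. Alternatives were models without batch, with a replicate block, the Twist1 value as covariate, fewer samples, other scalings, a filter on dim genes, other variance models and arrays left out. Counts of the further lists under left-out arrays and scalings were chosen after seeing the data. Promoter motifs were searched in the RefSeq stretches of build GRCm38.p6. Figures were drawn with matplotlib 3.10.9.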

Additional observations from a re-analysis of the deposited data

Results flagged for a closer look

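For 3 genes the difference from VEC pointed in opposite directions in wild-type Twist1 and in the DQD form, and the direct comparison of the 2 passed the test. Btg2 was at 2.22 in WT and -0.23 in DQD against VEC, and DQD against WT gave -2.45 (limma adjusted p = 0.00940). Sesn1 was at 1.0 and -0.18, and DQD against WT gave -1.18 (limma adjusted p = 0.0194). Plk2 was at 0.23 and -0.03, and DQD against WT gave -0.26 (limma adjusted p = 0.0203). None of the 3 differences of DQD from VEC passed the test, so a fall of these genes in DQD is not shown. Their sign also turned between batches: DQD against VEC was -0.71 in batch A and 0.21 in batch B for Btg2, -0.67 and 0.34 for Sesn1, and 0.10 and -0.12 for Plk2. Each of the 3 direct differences lost its call without DQD replicate A.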

How the results depend on the processing

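Counts are members past the threshold. In WT against VEC the count of 6 was 3 with the replicate letter as a block and batch, 0 with Twist1 as a covariate, 0 with only the 2 groups compared, 0 in batch A alone and 3 in batch B alone, and 2 to 6 when 1 array was left out. Over all genes 2466 passed in WT against VEC in the main fit and 1523 with the block and batch. In AQA against VEC the count of 0 was 1 without a batch term and 2 with array weights, and 0 to 2 with arrays left out. The count over all genes was 170 in the main fit, 413 without a batch term and 944 with array weights. In DQD against VEC the member count of 0 was 1 with array weights, when 1757 of all genes passed against 157 in the main fit. F191G against VEC stayed at 0 under every alternative run. In AQA against WT the count of 0 was 2 without a batch term, 1 with repeated quantile normalization, 1 without the dimmest 33.3% of genes and 4 with array weights, and 0 to 5 with arrays left out. Over all genes 140 passed there in the main fit. Under these 4 alternatives 1501, 420, 832 (of 12864) and 2843 did, so a rise in the member count came with a general rise in calls. In DQD against WT the count of 5 was 0 with only the 2 groups compared, 0 in batch A alone and 2 in batch B alone, and 0 to 6 with arrays left out. In F191G against WT the count of 3 was 1 with the replicate block and batch, 1 with Twist1 as a covariate, 0 with only the 2 groups compared, 0 in batch A alone and 0 in batch B alone, and 0 to 4 with arrays left out. Over all genes 1375 passed in F191G against WT in the main fit, 251 with the replicate block and batch and 467 with Twist1 as a covariate. With only the 2 groups compared 10 of all genes passed in WT against VEC and 0 in DQD against WT and in F191G against WT. The fits of 2 groups or of 1 batch hold fewer arrays. Batch B has 1 WT and 1 VEC array and 2 residual degrees of freedom, so its calls assume that these lone arrays vary like the other groups, as do those of DQD and F191G in batch A (1 array each), and in batch A alone 0 of all genes passed in any comparison. With Twist1 as a covariate 17 of all genes passed in WT against VEC, and the cause was not tested.

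The replicate letters were not found to pair the arrays: of 30 pairs with the same letter 6 had deviations correlated above 0.1, with a range of -0.85 to 0.22. With the block and no batch term the counts were 4 in WT against VEC, 5 in DQD against WT and 3 in F191G against WT, when 1961, 4376 and 927 of all genes passed. Of the 14 single changes that passed, 0 changed sign under any alternative. Of the 56 that did not pass, 20 changed sign under at least 1 alternative. The change of other probe sets of a member could not be computed, since each member has 1. At 3 arrays per group the precision limits every count.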
